A study of Mus musculus with 16 samples.

Results

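The 10 genes described here encode the interleukin-7 (IL-7) receptor, the kinases and STAT factors below it, and the genes that the pathway classically switches on. They were chosen by symbol: Il7r, Il2rg, Jak1, Jak3, Stat5a, Stat5b, Socs1, Socs3, Cish and Pim1, which are 10 of the 41214 genes counted. RNA sequencing libraries from the T cell acute lymphoblastic leukaemia (T-ALL) of 16 mice were analysed, in 8 groups of 2 mice each. The labels give a C57Bl6 strain for all of them. Miz1 is a zinc finger transcription factor, and the deltaPOZ mice (10 mice) express a Miz1 protein without its POZ domain, while the Miz1 wt mice (6 mice) carry the normal one. ICN, an activated form of Notch, induced the leukaemia in 12 mice, and 4 mice developed it without ICN.

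With ICN and p53 ko there were 2 Miz1 deltaPOZ mice with the title suffix Lck, 2 Miz1 deltaPOZ mice with the suffix Vav and 2 Miz1 wt mice. With ICN and p53 wt there were again 2 Lck, 2 Vav and 2 Miz1 wt mice. Without ICN there were 2 Miz1 deltaPOZ mice with the suffix Vav and 2 Miz1 wt mice, all of them p53 ko, so the effect of ICN can be set out only in p53-ko leukaemias and without the Lck mice. The labels do not explain the suffixes, and they give no organ, age or sex. The mice are separate animals, and their numbers below (mouse 1, mouse 2) only name them.

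IL-7 is a cytokine made by stromal cells, and developing T cells need it to survive and divide. It binds a receptor made of the IL-7 receptor alpha chain (Il7r) and the common gamma chain (Il2rg). JAK1 sits on the alpha chain and JAK3 on the gamma chain, and together they phosphorylate STAT5A and STAT5B, which then enter the nucleus and bind DNA. Cish, Socs1, Socs3 and Pim1 are among the genes that cytokine-activated STATs switch on. The products of the first 3 damp the pathway, and PIM1 is a kinase that favours survival. STAT5 also acts below many other receptors, among them the erythropoietin receptor of red cell precursors.

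The receptor genes are Il7r (ENSMUSG00000003882, chromosome 15, 9505788 to 9530176 on GRCm38, minus strand) and Il2rg (ENSMUSG00000031304, chromosome X, 101264378 to 101268255, minus strand). The kinase genes are Jak1 (ENSMUSG00000028530, chromosome 4, 101152367 to 101265282) and Jak3 (ENSMUSG00000031805, chromosome 8, 71676296 to 71690575). Stat5a (ENSMUSG00000004043, 100859351 to 100885169) and Stat5b (ENSMUSG00000020919, 100780731 to 100850724) lie next to each other on chromosome 11. The inhibitor genes are Socs1 (ENSMUSG00000038037, chromosome 16, 10782240 to 10785536), Socs3 (ENSMUSG00000053113, chromosome 11, 117966079 to 117970047) and Cish (ENSMUSG00000032578, chromosome 9, 107296026 to 107302784). Pim1 (ENSMUSG00000024014) is on chromosome 17 at 29490753 to 29496112. Other annotated genes share exon bases with some of them. Gm20489, on the same strand, covers 30.499% of the Il2rg exon bases, and Insl3 covers 7.549% of those of Jak3. On the opposite strand, Gm26885 covers 14.515% of the Pim1 exon bases, and Gm17041 and Gm17040 cover 7.462% and 4.066% of those of Cish. The strand setting of the counting is not given in the sources used here. It is thus not known how reads on the bases that Pim1 and Cish share with antisense neighbours were counted. Reads on bases shared on the same strand may have been set aside as ambiguous, so the levels of Il2rg and Jak3 per kilobase of exon may be too low.

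The promoter windows of 4 of the genes are shown because activated STAT5 binds palindromes of the form TTCNNNGAA. Each is a RefSeq window on GRCm38.p6 from 250 bases before to 50 bases after a start site, 5′ to 3′ on the gene's strand. Capitals mark the matches to the palindrome. The first 3 are the members that held it, and the fourth is a window of Pim1, which moved with ICN as Cish did and held no match in this window.
Cish, chr9:107296409-107296708, plus strand: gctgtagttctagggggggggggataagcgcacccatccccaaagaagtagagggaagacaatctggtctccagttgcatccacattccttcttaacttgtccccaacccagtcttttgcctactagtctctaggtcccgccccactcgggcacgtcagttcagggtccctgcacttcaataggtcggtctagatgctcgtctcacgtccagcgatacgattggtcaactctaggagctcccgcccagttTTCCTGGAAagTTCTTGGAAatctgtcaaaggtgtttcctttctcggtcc
Il7r, chr15:9529827-9530126, minus strand: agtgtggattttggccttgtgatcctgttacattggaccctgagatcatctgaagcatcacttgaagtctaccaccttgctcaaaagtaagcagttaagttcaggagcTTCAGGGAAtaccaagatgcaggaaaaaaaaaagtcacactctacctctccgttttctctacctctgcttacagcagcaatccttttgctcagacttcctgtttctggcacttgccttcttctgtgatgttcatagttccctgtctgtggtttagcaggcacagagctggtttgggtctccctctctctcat
Socs3, chr11:117969317-117969616, minus strand: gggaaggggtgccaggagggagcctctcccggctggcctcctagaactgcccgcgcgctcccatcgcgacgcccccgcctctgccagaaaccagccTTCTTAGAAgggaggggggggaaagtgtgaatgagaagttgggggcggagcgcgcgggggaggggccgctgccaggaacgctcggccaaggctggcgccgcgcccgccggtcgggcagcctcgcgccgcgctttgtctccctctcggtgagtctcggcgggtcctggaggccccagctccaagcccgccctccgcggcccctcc
Pim1, chr17:29490535-29490834, plus strand: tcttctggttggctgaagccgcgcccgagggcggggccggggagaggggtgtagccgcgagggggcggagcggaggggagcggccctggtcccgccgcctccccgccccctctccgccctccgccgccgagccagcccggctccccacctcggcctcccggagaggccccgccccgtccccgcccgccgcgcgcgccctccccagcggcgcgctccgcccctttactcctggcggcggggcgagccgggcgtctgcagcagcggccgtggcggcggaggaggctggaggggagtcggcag

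The Cish window held 2 matches, TTCCTGGAA at base 1 after the start and TTCTTGGAA at base 12. Of 32851 promoter windows of the same length in the RefSeq table, 8.3% held at least 1 match on either strand and 0.457% held 2 or more. Il7r held 1 match, TTCAGGGAA, 142 bases before the RefSeq start site of its window. Socs3 held 1, TTCTTAGAA, 154 bases before the RefSeq start site of its window. Both genes are on the minus strand, and their spans given above begin at 9530176 (Il7r) and 117970047 (Socs3). The matches, at 9530010 to 9530018 and 117969512 to 117969520, lie inside those spans and thus downstream of these bases. The other 7 members held none, over 13 windows for the 10 genes. A match describes the letters of the window and not whether a factor binds there. The hexamer TGGGAA, a letter string in the core of RBPJ sites through which Notch acts, was found on either strand in the windows of Il2rg and Socs1, and in 25.6% of all windows. Window 2 of Stat5a and window 2 of Stat5b share a stretch in which 53 of 60 bases are identical (88.3%). Both copies lie inside the gene spans given above and outside window 1 of their gene. Stat5b, on the minus strand, begins at 100850724, and its window 1 (100850532 to 100850831) holds that base. Stat5a begins at 100859351, and its window 1 is at 100859406 to 100859705. The 2 copies are written here with the bases that differ in capitals.
Stat5a, chr11:100860418-100860477, plus strand: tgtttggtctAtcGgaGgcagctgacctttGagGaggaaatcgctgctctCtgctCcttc
Stat5b, chr11:100822568-100822627, minus strand: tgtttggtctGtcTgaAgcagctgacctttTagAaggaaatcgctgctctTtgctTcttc

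The libraries held 36463524 to 68523196 counts in genes (median 50171983), and no library repeated another. Trp53 lay at 7.325 to 30.59 CPM (counts scaled to a common library size) in the p53-ko mice, against 70.23 to 113.5 CPM in the p53-wt mice, as their labels say. All 15 T lineage markers were detected in all libraries, with Cd3e at 67.19 to 178.7 CPM and Lck at 710.7 to 2035 CPM. Other cells were also present: the summed level of 9 erythroid markers was 5213 to 24400 CPM in the 12 ICN mice, against 354.6 to 1046 CPM in the 4 mice without ICN. The summed level of 10 neutrophil markers was 53.39 to 9179 CPM with ICN, against 0.8257 to 1.648 CPM without. In whole tissue, fewer cells of a type and less RNA per cell cannot be told apart.

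All 10 genes passed the filter on low counts. Levels of different genes were compared per kilobase of exon, as medians over the 16 mice. Stat5b had 50.12 CPM per kb, Pim1 43.28, Jak1 40.81 and Il2rg 27.11 CPM per kb. Stat5a followed with 15.6, Socs1 with 9.736 and Socs3 with 6.676 CPM per kb. Jak3 had 3.9, Cish 2.233 and Il7r 1.82 CPM per kb, the lowest median of the 10. The alpha chain gene of the receptor, Il7r, was thus at the bottom of this order and Stat5b at its top. The genes also differed in how far they ranged over the mice. Stat5b spanned 1.75-fold from the lowest to the highest mouse, Jak1 2.33-fold, Stat5a 2.64-fold and Il2rg 2.95-fold. Jak3 spanned 4.38-fold, Socs1 11.8-fold, Pim1 18.9-fold, Socs3 19.1-fold, Il7r 31.9-fold and Cish 168-fold.

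**Figure D1:**
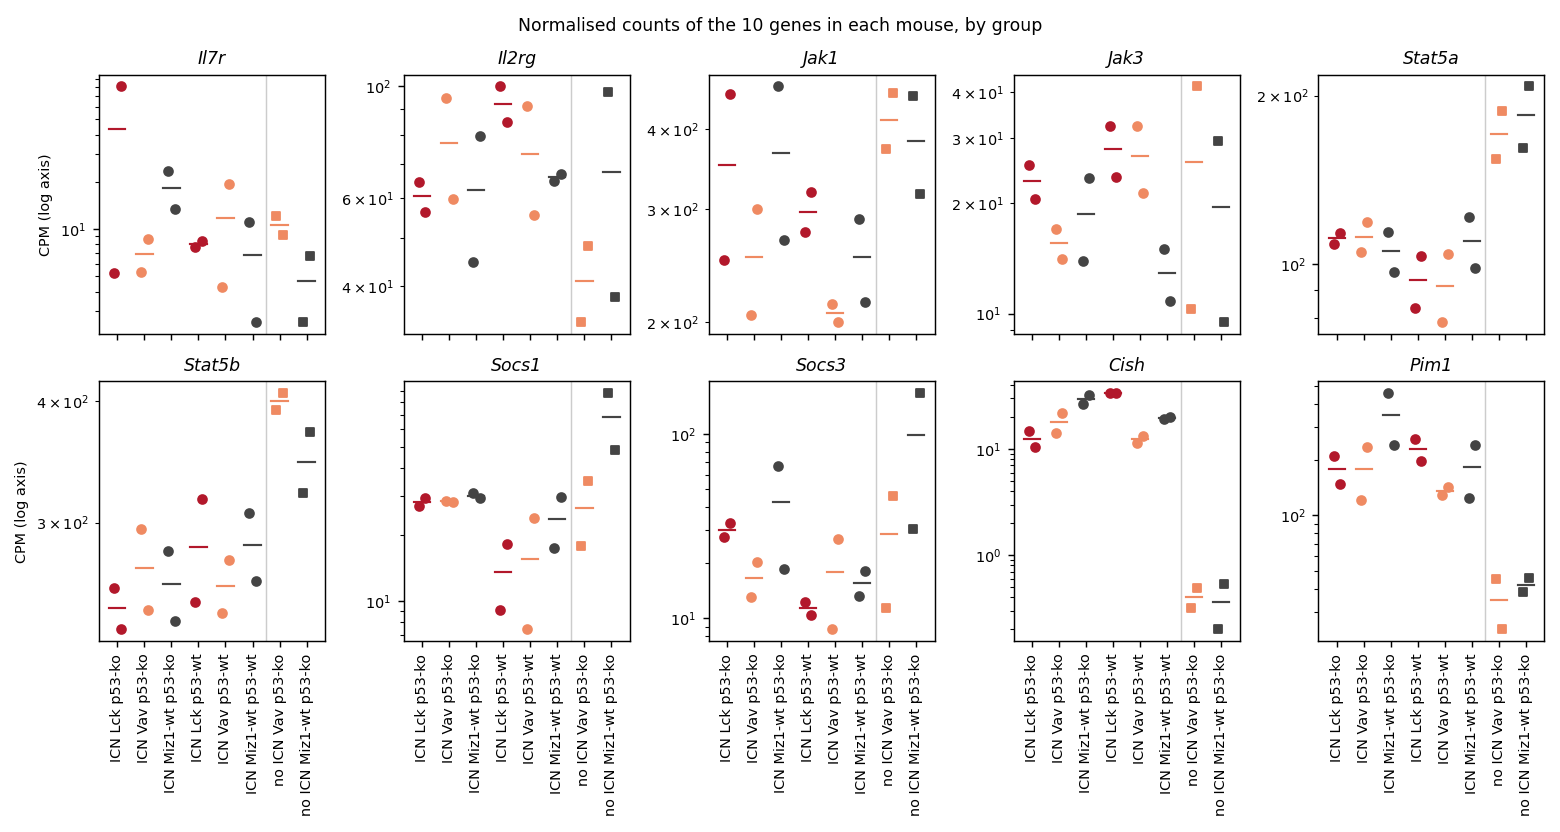
Normalised counts of the 10 genes (CPM, log axis, a scale of its own in each panel) in each of the 16 mice, with 2 points per group and a line at the group mean. Circles are ICN mice and squares are mice without ICN, with Lck deltaPOZ in red, Vav deltaPOZ in orange and Miz1 wt in dark grey. Cish and Pim1 sit higher in the 12 ICN mice than in the 4 others, Stat5a and Stat5b sit lower, and 1 ICN Lck p53-ko mouse stands apart in Il7r at 81.13 CPM.

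ICN-induced leukaemias were set against those without ICN among p53-ko mice, 4 mice against 4, with Miz1 wt and Vav deltaPOZ mice weighted equally on each side. Of the 10 genes, 2 rose (Cish and Pim1) and 2 fell (Stat5a and Stat5b), and 6 did not pass an adjusted p of 0.05. Over all 17470 genes tested, 24% were called in this comparison, 12.9% higher and 11.1% lower, so 4 calls among 10 genes stand beside a high background. The median log2 fold change of the 10 genes was -0.39, and that of all genes was -0.02.

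Cish, an inhibitor of cytokine receptor signalling, had 14.64 and 10.38 CPM in the ICN Lck p53-ko mice, 14.02 and 21.84 CPM in the ICN Vav p53-ko mice, and 26.84 and 32.57 CPM in the ICN Miz1 wt p53-ko mice. In the ICN p53-wt mice it had 33.6 and 33.5 CPM (Lck), 11.39 and 13.2 CPM (Vav), and 19.25 and 19.84 CPM (Miz1 wt). Without ICN it had 0.3205 and 0.4861 CPM in the Vav mice and 0.2002 and 0.531 CPM in the Miz1 wt mice. All 12 ICN mice thus lay above all 4 mice without ICN, with no overlap. Of all genes, 21.7% had no overlap, in either direction, between the 4 ICN mice and the 4 mice without ICN that were compared. That share was not computed for all 12 ICN mice. The means of the 4 mice on each side were 23.82 CPM with ICN and 0.3844 CPM without, a 58.7-fold difference (log2 5.88, SE 0.35, 95% interval 5.11 to 6.64, adjusted p = 3.99e-06 by edgeR's quasi-likelihood test). The counts behind it were 4418 reads in the 4 ICN mice and 87 in the 4 mice without ICN, a pooled ratio of 56.7 with an exact 95% interval of 45.8 to 70.9 for counting error alone. In order of group means, ICN Lck p53-wt mice came first and the ICN Miz1 wt p53-ko mice second, overlapping neither that group nor the next. The ICN Miz1 wt p53-wt, Vav p53-ko, Lck p53-ko and Vav p53-wt groups followed, each overlapping its neighbour in range. The groups without ICN were last and overlapped each other.

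Pim1, a serine/threonine kinase gene, had 209.5 and 148.1 CPM in the ICN Lck p53-ko mice, 121.3 and 234.5 CPM in the ICN Vav p53-ko mice, and 458.6 and 241.1 CPM in the ICN Miz1 wt p53-ko mice. In the ICN p53-wt mice it had 259.2 and 196.4 CPM (Lck), 128.4 and 142.9 CPM (Vav), and 124.6 and 240.2 CPM (Miz1 wt). Without ICN it had 45.12 and 24.22 CPM in the Vav mice and 38.48 and 45.82 CPM in the Miz1 wt mice. The lowest ICN mouse still lay above the highest mouse without ICN. The 4 mice on each side averaged 263.9 CPM with ICN and 38.41 CPM without (log2 2.71, SE 0.33, 6.53-fold, adjusted p = 0.000322 by edgeR).

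The STAT5 genes moved the other way. Stat5a had 105 and 119.1 CPM in the ICN Vav p53-ko mice and 114 and 96.9 CPM in the ICN Miz1 wt p53-ko mice, against 154 and 187.8 CPM in the Vav mice and 161.5 and 207.7 CPM in the Miz1 wt mice without ICN. The other ICN mice, Lck and p53 wt included, lay between 78.7 and 121.6 CPM. No ICN mouse reached the level of a mouse without ICN, and Stat5a was 1.63-fold lower with ICN (log2 -0.71, SE 0.16, adjusted p = 0.00846 by edgeR). Stat5b had 295.2 and 243.8 CPM in the ICN Vav p53-ko mice and 280.7 and 237.8 CPM in the ICN Miz1 wt p53-ko mice. Without ICN it had 392.1 and 407.7 CPM in the Vav mice and 321.6 and 371.5 CPM in the Miz1 wt mice. The 12 ICN mice reached up to 317.5 CPM and the 4 others began at 321.6 CPM, a narrow gap. Stat5b was 1.41-fold lower with ICN (log2 -0.49, SE 0.14, adjusted p = 0.026). This call was lost when mouse 2 of either compared group was left out on either side (adjusted p 0.0505 without the Miz1 wt mouse and 0.0606 without the Vav mouse of the leukaemias without ICN, 0.0588 without the ICN Miz1 wt mouse and 0.0843 without the ICN Vav mouse), without a filter on low counts (0.109) and in a fit of the compared groups alone (0.0976).

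The receptor and kinase genes did not pass. Il7r had 5.347 and 8.623 CPM in the ICN Vav p53-ko mice and 23.35 and 13.46 CPM in the ICN Miz1 wt p53-ko mice, against 12.13 and 9.236 CPM (Vav) and 2.577 and 6.788 CPM (Miz1 wt) without ICN. The sides overlapped (log2 0.68, SE 0.75, adjusted p = 0.548), and the 95% interval of -0.96 to 2.32 holds changes in either direction. Il2rg averaged 69.7 CPM with ICN and 54.33 CPM without (log2 0.40, SE 0.31, adjusted p = 0.38), over ranges of 44.62 to 94.66 and 33.9 to 97.21 CPM. Jak1 averaged 309.9 CPM with ICN and 398.4 CPM without (log2 -0.39, SE 0.24, adjusted p = 0.277). Jak3 averaged 17.06 CPM with ICN and 22.68 CPM without (log2 -0.40, SE 0.44, adjusted p = 0.545), and the log2 difference changed sign to 0.27 without mouse 2 of the Vav mice without ICN (41.46 CPM) and to 0.09 without mouse 1 of the Miz1 wt mice without ICN (29.5 CPM). In all 4 genes the mice of each side overlapped in level.

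The other STAT-induced inhibitors, Socs1 and Socs3, did not pass. Socs1 had 28.48 and 28.14 CPM in the ICN Vav p53-ko mice and 30.78 and 29.18 CPM in the ICN Miz1 wt p53-ko mice, against 17.76 and 35.12 CPM (Vav) and 87.55 and 48.35 CPM (Miz1 wt) without ICN. The 4 ICN mice lay within a few CPM of each other, while the mice without ICN spread on either side of them (log2 -0.54, SE 0.38, adjusted p = 0.332). Socs3 had 13.02 and 20.06 CPM in the ICN Vav p53-ko mice and 67.21 and 18.54 CPM in the ICN Miz1 wt p53-ko mice, against 11.31 and 46.15 CPM (Vav) and 30.38 and 166.3 CPM (Miz1 wt) without ICN. The log2 difference of -1.0 (SE 0.61, adjusted p = 0.257) shrank to -0.20 without mouse 2 of the Miz1 wt mice without ICN, which held 166.3 CPM. Without a filter on low counts Socs3 passed, with a log2 difference of -0.99 (adjusted p = 0.00277 by edgeR). That fit used a spread largely shared between genes, as given in the last section.

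**Figure D2:**
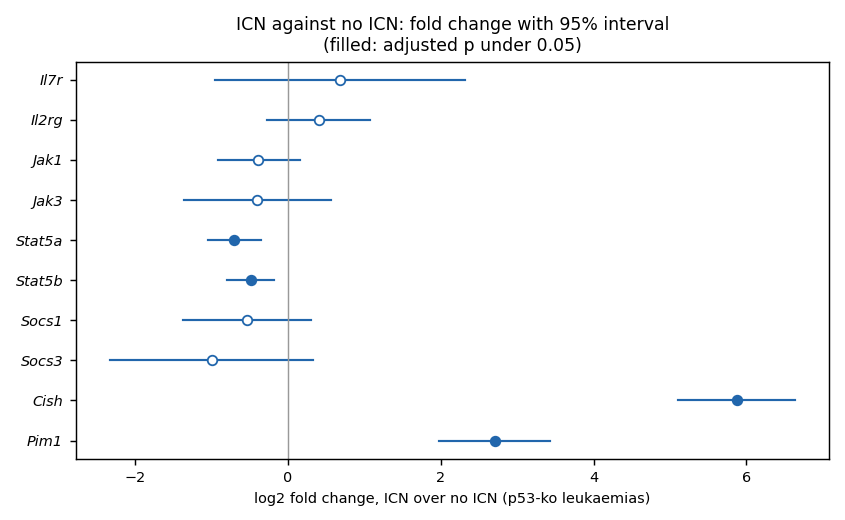
Log2 fold change of each gene, ICN over no ICN in p53-ko leukaemias (4 mice against 4), with its 95% interval from edgeR's quasi-likelihood fit. Filled points passed an adjusted p of 0.05: Cish at 5.88 and Pim1 at 2.71 lie to the right of 0, Stat5a at -0.71 and Stat5b at -0.49 to the left, and the open points are the 6 genes that did not pass.

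Markers of other cells moved with the same comparison. The mean log2 CPM of the 9 erythroid markers was 8 to 10.08 in the ICN mice and -1.13 to 0.47 in the mice without ICN. Of these genes, Slc4a1, the red cell anion exchanger, had 1115 to 4575 CPM with ICN and 0 to 0.1831 CPM without. Epor, the erythropoietin receptor gene, lay at 20.1 to 77.31 CPM with ICN and at 4.449 to 6.962 CPM without. The summed level of the T lineage markers was 2432 to 6118 CPM with ICN and 5080 to 12500 CPM without. These ranges overlapped. Among the 12 ICN mice, Stat5a had a Pearson r of 0.64 with the T lineage mean (permutation p = 0.0293, adjusted p = 0.293). Without the 2 mice farthest from the median it was -0.57. Stat5b had an r of 0.38 (permutation p = 0.229), and 0.18 without those 2 mice. The part of the T lineage share in the lower Stat5a and Stat5b levels was not tested beyond these values. With the erythroid mean as a covariate, an alternative added after seeing the data, the ICN difference of Cish was 3.57 (log2, SE 1.81, adjusted p = 0.857), that of Pim1 -0.81 (SE 1.89, adjusted p = 0.957), that of Stat5a -0.43 (SE 1.06, adjusted p = 0.959) and that of Stat5b 0.49 (SE 0.89, adjusted p = 0.939). No member and 0 genes of all passed in that fit by edgeR (1000 had an unadjusted p under 0.05), in which the standard error of Cish was 1.81 against 0.35. The erythroid level separates the ICN mice from the others completely, and so does the neutrophil level given above. The mean log2 CPM of 10 NK and innate lymphoid markers also did (1.55 to 3.28 with ICN, -0.4 to 0.59 without), though their sums overlapped. So did the sum of 10 endothelium and stroma markers (74.29 to 179.5 CPM with ICN, 201.1 to 311.4 CPM without), though their means overlapped. ICN and the share of these cell types thus cannot be told apart between these groups.

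Among the 12 ICN mice alone the levels could be set beside the erythroid markers. Cish had a Pearson r of 0.28 (permutation p = 0.365) and a Spearman rho of 0.36 (permutation p = 0.246) with the erythroid mean, and r was 0.26 without the 2 mice farthest from the median. Its level was 19.25 CPM in the ICN mouse with the lowest erythroid sum (5213 CPM, Miz1 wt p53 wt, mouse 1) and 14.64 CPM in the one with the highest (24400 CPM, Lck p53 ko, mouse 1). Pim1 had an r of 0.70 (permutation p = 0.0113) and a rho of 0.76 (permutation p = 0.0061). Adjusted over the 40 relations of the 10 genes to 4 marker lists, the permutation p of Pim1 was 0.151 for r and 0.214 for rho, and r was 0.54 without the 2 farthest mice. The part of red cell precursors in the levels of Cish and Pim1 was not tested beyond these values.

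**Figure D3:**
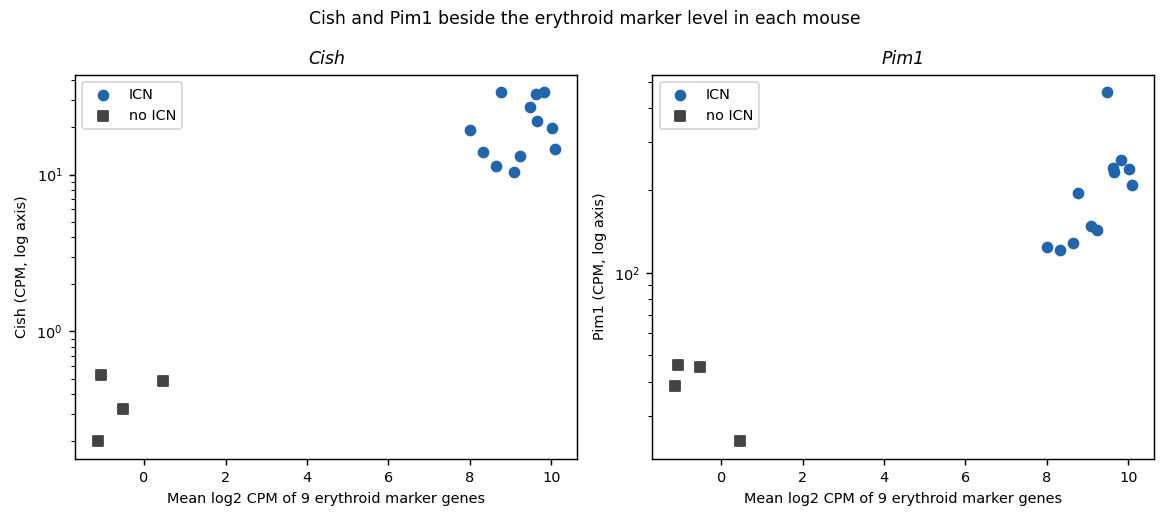
Cish and Pim1 (CPM, log axes) against the mean log2 CPM of 9 erythroid markers, 1 point per mouse, with the 12 ICN mice as circles and the 4 mice without ICN as squares. The ICN mice form a cloud between 8 and 10.08 on the horizontal axis, far from the others at -1.13 to 0.47, with Pim1 climbing within the cloud (r 0.70) and Cish less so (r 0.28).

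Other genes of the pathway, taken from lists of cytokines, receptors, kinases and STATs, inhibitors, STAT5-responsive genes and regulators of Il7r transcription, were tested in the same comparison. Of 70 genes, 67 passed the filter, and 17 rose and 10 fell with ICN, beside the background of 12.9% higher and 11.1% lower. The median log2 fold change of the 67 was 0.06, and that of all genes was -0.02. By role, 2 of 4 tested cytokines rose, 2 of 7 receptors rose and 1 fell, and 3 of 7 kinases and STATs rose. The 2 cytokines, Il4 and Il21, were near the detection limit. Il4 had 48 counts in the 4 ICN mice and 3 in the 4 others, and Il21 had 122 and 3. Of the 19 inhibitors 3 rose and 2 fell, of the 14 STAT5-responsive genes 5 rose and 2 fell, and of the 16 regulators of Il7r 2 rose and 5 fell.

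The lowest p-values among them belonged to 6 genes. Gfi1b, a transcriptional repressor needed to form red cells and platelets, averaged 33.34 CPM with ICN and 0.213 CPM without (log2 7.30, SE 0.72, adjusted p = 7.53e-05 by edgeR). Ccnd2, cyclin D2, averaged 22.16 CPM with ICN and 1.959 CPM without (log2 3.59, SE 0.41). Osm, the STAT5-responsive cytokine gene oncostatin M, averaged 11.31 CPM with ICN and 3.242 CPM without (log2 1.78, SE 0.27). Gzmb, granzyme B, averaged 11.7 CPM with ICN and 0.2513 CPM without (log2 5.0, SE 0.84). Gata3, a T lineage transcription factor, was the 1 of the 6 that fell, with 11.49 CPM with ICN and 46.33 CPM without (log2 -2.01, SE 0.31). Il21, a cytokine of the gamma chain family, was near the detection limit, with 122 counts in the 4 ICN mice and 3 counts in the 4 others, a pooled ratio of 45.4 (exact 95% interval 15.2 to 223, counting error only). Of the 6, Gfi1b is itself an erythroid gene and moved with the erythroid markers above. Il2ra and Jak2 were picked out after their values were seen. Both rose, while 10 of the 67 tested genes fell, among them Gata3 and 1 receptor. Il2ra, the alpha chain of the IL-2 receptor, had 58.27 to 344.7 CPM with ICN and 0.07507 to 41.42 CPM without (log2 3.96, SE 1.27, adjusted p = 0.043 by edgeR). Jak2, from the list of kinases and STATs, had 95.64 to 228.1 CPM with ICN and 34.29 to 72.06 CPM without (log2 1.34, SE 0.22, adjusted p = 0.00201 by edgeR).

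**Figure D4:**
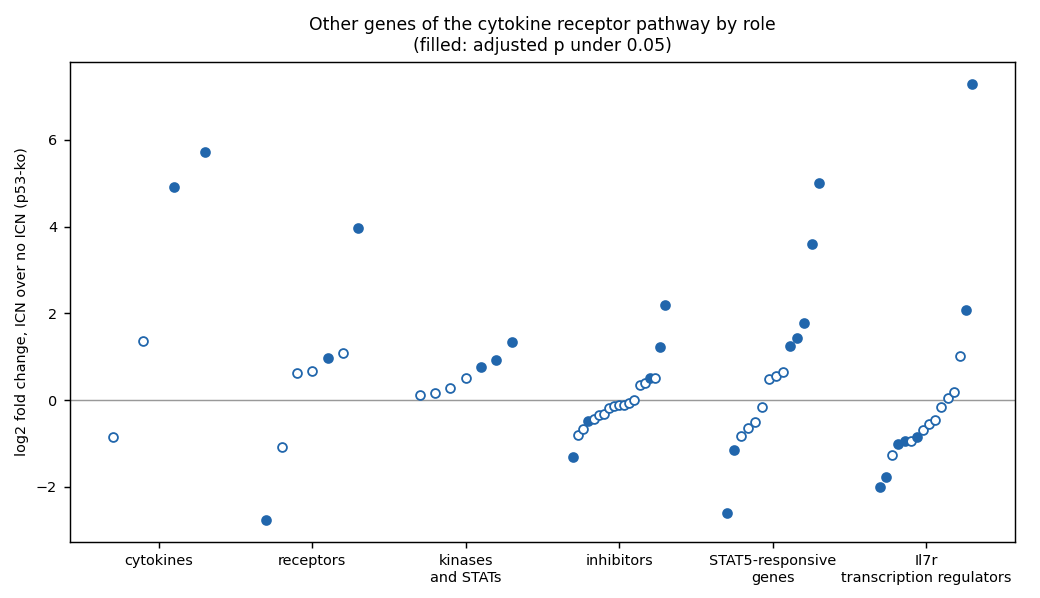
Log2 fold change, ICN over no ICN in p53-ko leukaemias, for the 67 other pathway genes tested, sorted by value within each role. Filled points passed an adjusted p of 0.05, 17 above 0 and 10 below it, and Gfi1b is the highest at 7.30.

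The question of the series, how loss of the Miz1 POZ domain bears on the leukaemias, was put to the same genes. Averaged over the 3 backgrounds, 10 deltaPOZ mice against 6 Miz1 wt mice, 0 of the 10 genes passed by edgeR and 1 had an unadjusted p under 0.05. DESeq2 also called 0. Of all genes 0.0172% were called and 4.92% had an unadjusted p under 0.05. Socs1 had the lowest p: 22.4 CPM on average in deltaPOZ mice and 40.47 CPM in Miz1 wt mice (log2 -0.71, SE 0.28, adjusted p = 0.968 by edgeR). Socs3 averaged 20.91 CPM in deltaPOZ mice and 52.27 CPM in Miz1 wt mice (log2 -0.95, SE 0.44, adjusted p = 1), and its difference was -0.39 without the Miz1 wt mouse at 166.3 CPM. The intervals were narrowest for Stat5b (log2 0.04, 95% interval -0.19 to 0.27) and Stat5a (log2 -0.09, 95% interval -0.35 to 0.16).

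Within ICN p53-ko leukaemias, 4 deltaPOZ mice against 2 Miz1 wt mice, 0 members passed and 2 had an unadjusted p under 0.05, beside 0.00572% of all genes called and 3.78% under that unadjusted p. Both were lower in deltaPOZ without overlap. Cish had 10.38 to 21.84 CPM in the 4 deltaPOZ mice and 26.84 and 32.57 CPM in the 2 Miz1 wt mice (log2 -0.99, SE 0.33, adjusted p = 0.918 by edgeR). Pim1 had 121.3 to 234.5 CPM in the 4 deltaPOZ mice and 458.6 and 241.1 CPM in the 2 Miz1 wt mice (log2 -0.97, SE 0.37, adjusted p = 1). Of all genes, 8.9% had sides that did not overlap. In the same mice the erythroid sums were 24400 and 10460 CPM (Lck), 6337 and 16210 CPM (Vav), and 17990 and 15990 CPM (Miz1 wt), and with the erythroid mean as a covariate, added after seeing the data, the differences were -0.94 for Cish (SE 0.32) and -0.92 for Pim1 (SE 0.34).

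Within ICN p53-wt leukaemias, 0 members passed by edgeR and by DESeq2 and 0 had an unadjusted p under 0.05, beside 0% of all genes called and 1.87% under that unadjusted p. Jak3 was the 1 member without overlap, as were 11.4% of all genes, at 32.38 and 23.5 CPM (Lck) and 32.26 and 21.29 CPM (Vav) against 15.02 and 10.79 CPM (Miz1 wt) (log2 1.08, SE 0.56, adjusted p = 1 by edgeR). Cish in these mice differed by 0.06 (log2, 95% interval -0.69 to 0.80), with its Lck mice above and its Vav mice below the Miz1 wt mice. Without ICN, 2 mice against 2, 0 members passed by edgeR and by DESeq2, 1 had an unadjusted p under 0.05 and 0% of all genes were called, with 7.68% under that unadjusted p. Socs1 had 17.76 and 35.12 CPM in deltaPOZ mice and 87.55 and 48.35 CPM in Miz1 wt mice (log2 -1.36, SE 0.55, adjusted p = 0.583 by edgeR). Il7r had 12.13 and 9.236 CPM in deltaPOZ mice and 2.577 and 6.788 CPM in Miz1 wt mice (log2 1.19, SE 1.07, adjusted p = 0.88). Socs1, Il7r and Stat5b did not overlap between the sides, as was true of 26% of all genes with this number of mice.

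**Figure D5:**
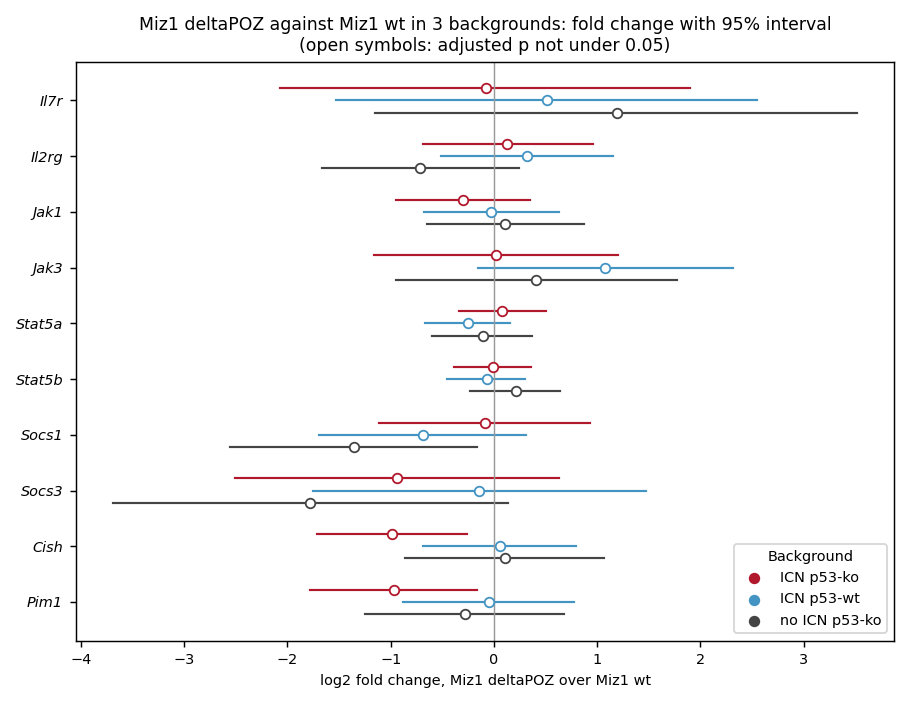
Log2 fold change of each gene, Miz1 deltaPOZ over Miz1 wt, in ICN p53-ko leukaemias (red), ICN p53-wt leukaemias (blue) and p53-ko leukaemias without ICN (grey), with 95% intervals from edgeR. All points are open because none passed an adjusted p of 0.05, and the intervals of Cish and Pim1 in ICN p53-ko leukaemias and of Socs1 without ICN leave out 0 before adjustment.

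Whether the deltaPOZ difference itself changed with background was tested with interaction terms. Between ICN p53-ko and ICN p53-wt leukaemias, 0 members passed by edgeR and by DESeq2 and 0 had an unadjusted p under 0.05, beside 0% of all genes called and 2.6% under that unadjusted p. The Cish term was -1.04 (log2, SE 0.48, adjusted p = 1 by edgeR), with an unadjusted edgeR p of 0.053. Between p53-ko leukaemias with and without ICN, 0 members passed and 0 had an unadjusted p under 0.05 in a test of the Vav mice by edgeR (DESeq2 also called 0), beside 0% of all genes called and 6.99% under that unadjusted p. The Il7r term there was -2.58 (log2, SE 1.51, adjusted p = 0.728), with deltaPOZ lower than Miz1 wt in the ICN Vav mice and higher without ICN.

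Loss of p53 was examined among the 12 ICN mice, 6 p53 ko against 6 p53 wt. None of the 10 genes passed by edgeR or DESeq2, 1 had an unadjusted p under 0.05, and 0.195% of all genes were called, with 15.5% under that unadjusted p. Socs1 had 26.92 to 30.78 CPM in the 6 p53-ko mice and 7.45 to 29.6 CPM in the 6 p53-wt mice, with means of 28.79 and 17.55 CPM (log2 0.75, SE 0.31, adjusted p = 0.276 by edgeR). The p53-ko mice lay close together at the upper end of the wider p53-wt range. Over the 12 ICN mice, Socs1 had a Pearson r of 0.82 with the T lineage mean (permutation p = 0.00356, adjusted p = 0.142 over the 40 relations). Its Spearman rho was 0.46 (permutation p = 0.134), and r was 0.10 without the 2 mice farthest from the median. The part of the T lineage share in the Socs1 levels was not tested beyond these values. Socs3 averaged 29.85 CPM in p53-ko mice and 14.91 CPM in p53-wt mice (log2 0.92, SE 0.50, adjusted p = 0.404). Il7r averaged 22.87 CPM in p53-ko mice and 8.894 CPM in p53-wt mice (log2 1.03, SE 0.61, adjusted p = 0.452), and without the mouse at 81.13 CPM the difference was 0.02. Lck deltaPOZ mice were set against Vav deltaPOZ mice with ICN, 4 against 4. There 0 members passed by edgeR and by DESeq2 and 0 had an unadjusted p under 0.05, beside 0% of all genes called and 3.15% under that unadjusted p. Jak1 averaged 324.3 CPM with the suffix Lck and 229.6 CPM with Vav (difference of 0.50 on the log2 scale, SE 0.25, edgeR adjusted p = 1). The other pathway genes gave 0 calls by edgeR in each of the deltaPOZ, interaction, p53 and suffix comparisons, with 11 of 67 under an unadjusted p of 0.05 for p53, 6 for deltaPOZ without ICN and 0 to 5 in the others. These comparisons reuse the same mice in part and were not set against each other.

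Of the 10 genes, Il7r had the largest fold between the 2 mice of a group, 15.3 in the ICN Lck p53-ko mice, while Pim1, Jak1 and Socs3 had larger spreads in CPM. It had 5.294 and 81.13 CPM in the ICN Lck p53-ko mice, 5.347 and 8.623 CPM in the ICN Vav p53-ko mice and 23.35 and 13.46 CPM in the ICN Miz1 wt p53-ko mice. In the ICN p53-wt mice it had 7.671 and 8.352 CPM (Lck), 4.298 and 19.38 CPM (Vav), and 11.12 and 2.546 CPM (Miz1 wt). Mouse 2 of the ICN Lck p53-ko group stood far above its partner and above every other mouse. Without it, the log2 difference of Il7r was -1.59 for deltaPOZ in ICN p53-ko leukaemias (-0.08 with it) and -0.48 for Lck against Vav (1.03 with it), none of them called. The order of group means was led by that group and then ran over the ICN Miz1 wt p53-ko, ICN Vav p53-wt, Vav without ICN, ICN Lck p53-wt, ICN Vav p53-ko and ICN Miz1 wt p53-wt groups to the Miz1 wt mice without ICN. Apart from the Vav mice without ICN and the ICN Lck p53-wt mice, all neighbours in that order overlapped.

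Across the 12 ICN mice, the level of Il7r was set beside that of each of the 9 other genes, and no relation passed an adjusted p of 0.05. Jak1 had a Pearson r of 0.72 (permutation p = 0.0087, adjusted p = 0.0783 over the 9) and a Spearman rho of 0.53 (permutation p = 0.0802, adjusted p = 0.241). Without the 2 mice farthest from the Il7r median its r was 0.50. Socs3 had an r of 0.59 and a rho of 0.61 (permutation p = 0.0485 and 0.0407, adjusted p = 0.187 and 0.183), and Il2rg an r of -0.55 and a rho of -0.64 (permutation p = 0.0624 and 0.0281, adjusted p = 0.187 and 0.183). Without those 2 mice r was 0.69 for Socs3 and -0.71 for Il2rg. Cish had an r of -0.14 and a rho of -0.03 with Il7r (permutation p = 0.677 and 0.939), and its r was 0.37 without those 2 mice, so its sign rests on them.

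Genes with the pattern most like that of Il7r were sought among 11274 protein-coding genes by Pearson r of log2 CPM over the same 12 mice, as a description. They were 1190002N15Rik (0.93), Camk2d (0.93), Slc9a9 (0.91), Cdyl2 (0.91) and Deptor (0.90). All of these were highest in the same mouse as Il7r, and 1190002N15Rik and Slc9a9 are both on chromosome 9, at 94517864 to 94538081 and 94669909 to 95230445. Without that mouse their r with Il7r was 0.79 to 0.91. Most like Cish were Erfe (0.88), Fhl3 (0.78), Rab3ip (0.77), Bmp2k (0.75) and Phf12 (0.75). Erfe, which encodes the hormone erythroferrone of red cell precursors and is itself induced through STAT5, had 13.43 to 69.93 CPM in the ICN mice and 0.67 to 4.92 CPM in the mice without ICN. Bmp2k was also higher with ICN (157.67 to 313.42 against 41.9 to 139.83 CPM). Phf12 was lower with ICN (53.05 to 70.08 against 71.75 to 98.84 CPM). Fhl3 (4.74 to 15.16 against 3.75 to 29.74 CPM) and Rab3ip (14.54 to 29.57 against 11.52 to 15.9 CPM) overlapped between the sides.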

How the data were processed

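Stranded mRNA libraries of T-ALL from 16 mice were sequenced, per the labels' protocols. The authors deposited raw counts per Ensembl gene, and the submitters' processing notes name TopHat2 2.0.10, SAMtools, HTSeq and DESeq with mm10 and GRCm38. No source names the annotation release, the strand setting or a batch. Totals that name no gene were left out (not uniquely mapped: 45.815% to 63.742% per library; outside genes: 14.216% to 21.497%; ambiguous: 0.138% to 0.331%). GENCODE M21 named 40254 of 41214 identifiers.

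edgeR 4.0.16 (R 4.3.3) tested 17470 genes after filterByExpr and TMM, with 1 quasi-likelihood model for the 8 groups (8 residual degrees of freedom, common dispersion 0.208). Benjamini-Hochberg adjustment covered all genes, and calls needed an adjusted p under 0.05. The SE is the log2 fold change over the root of F. Printed means are over mice, whereas contrasts weight group means. A prior count of 2 entered log2 CPM. Relations used 100000 two-sided permutations (SciPy 1.17.1), and count ratios have Clopper-Pearson 95% intervals for counting error only. Scripts were tested on simulated data. Alternatives were DESeq2 1.42.0, limma-voom (limma 3.58.1), other scalings and filters, the compared groups alone and each library left out. The genes and lists were chosen with earlier results of these data known. The text names all 10 members, up to 6 other pathway genes per comparison in order of p, and the 5 genes most like Il7r and Cish each. Beyond that rule, Il2ra, Jak2 and Il4 were named after their values were seen.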

Additional observations from a re-analysis of the deposited data

Results flagged for a closer look

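Il7r reached 81.13 CPM in mouse 2 of the ICN Lck p53-ko group, while the other 3 ICN deltaPOZ p53-ko mice had 5.294, 5.347 and 8.623 CPM. The gap between that mouse and the next, divided by the range of the 4 mice, was 0.956, above Dixon's 95% critical value for 4 samples. On the log2 scale it was 0.822, under that value. In all, 20 sets of 4 mice were examined (10 genes in each of 2 genotypes), and chance flags about 1 in 20. The same mouse had 452.9 CPM of Jak1 and a summed neutrophil marker level of 6539 CPM, and its partner had 249.5 CPM of Jak1 and 9179 CPM of neutrophil markers. Across the 12 ICN mice, Il7r had a Pearson r of 0.40 with the neutrophil markers (permutation p = 0.197). With the macrophage and dendritic cell markers r was 0.45 (permutation p = 0.139). It was 0.13 with the T lineage markers (permutation p = 0.664) and -0.11 with the erythroid markers (permutation p = 0.727). The part of other cells in the Il7r level was not tested beyond these values.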

How the results depend on the processing

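Over 90 results (10 genes in 9 comparisons), 2029 of 2150 alternative values kept their sign and 16 changed their call, of which 11 came without a filter on low counts. In 270 values with other scalings no call changed. Without a filter, 2 members were called for deltaPOZ averaged over backgrounds (Socs1 and Socs3), 1 for ICN p53-ko deltaPOZ (Pim1), 2 for deltaPOZ without ICN (Socs1 and Socs3), 3 for p53 (Il7r, Socs1 and Socs3) and 1 for the interaction of deltaPOZ with ICN (Il7r), against 0 in each as reported. With ICN, Socs3 was gained (adjusted p = 0.00277) and Stat5b lost (0.109) in that fit. It tested 30095 genes. Its median prior degrees of freedom, which set how far each gene's spread is drawn to a common value, were infinite, against 3.34 in the main fit. The p-values of that fit thus rest largely on a spread shared between genes. The cause of each changed call was not tested. With ICN, 3 to 4 members were called when 1 library was left out and 0 with the erythroid mean as a covariate, where Stat5b (0.49) and Pim1 (-0.81) reversed. Counts over all genes ranged widely between tools: for p53, 34 by edgeR, 1088 by DESeq2, 29 by limma-voom and 149 in a fit of the compared groups alone, and with ICN 4194, 5332, 3728 and 2360. DESeq2 called 129, 15, 114 and 233 genes for deltaPOZ averaged, in ICN p53 wt, in ICN p53 ko and without ICN, against 3, 0, 1 and 0. It called 15 for Lck against Vav and 27 and 76 for the interactions, against 0. Without a filter the counts were 502, 211, 464 and 746 for deltaPOZ, 1588 for p53, 277 for Lck against Vav and 378 and 613 for the interactions. With 1 library left out they were 0 to 20, 0 to 1, 0 to 3 and 0 to 108 for deltaPOZ, 2 to 132 for p53 and 2524 to 4643 with ICN. Other scalings moved the median of all genes by at most 0.064 (log2, deltaPOZ without ICN), and leaving out the filter moved it by at most 0.151 (an interaction). The averaged comparison uses all groups, so no smaller fit exists. No paired analysis was possible because the mice are separate animals and the labels give no pairing. With 2 mice per group, wide intervals limit the receptor, kinase and Socs genes.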
